A study of Mus musculus with 2 samples.

Results

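Ccl21a, Ccl19, Ccl25, Cxcl12, Cxcl13 and Cxcl14 encode secreted chemokines that position developing T cells and other leukocytes in the thymus. They were chosen by symbol, and 6 of the 31053 genes in the deposited matrices carry these symbols. The symbols Ccl21a and Ccl19 each appear under a second gene identifier, so the 6 symbols occupy 8 rows. The second Ccl21a identifier had 2 UMIs in each library and the second Ccl19 identifier had 0 UMIs in each, so each level given here rests on 1 identifier per gene.

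The study sorted EPCAM+Ly51- medullary thymic epithelial cells (mTECs) from mouse thymus and sequenced them with the 10x Genomics 3' kit, which tags the 3' end of each transcript and counts molecules by unique molecular identifiers (UMIs). It set out to compare mice with a conditional deletion of Ikaros (gene Ikzf1, a zinc-finger transcription factor best known from lymphocytes) with controls. There was 1 library of the genotype Foxn1-Cre(+) Ikaros fl/fl and 1 of the genotype Foxn1-Cre(+) Ikaros +/fl. Foxn1-Cre acts in thymic epithelium and was carried by both, so each library had at least 1 floxed allele exposed to Cre. The labels give no age, no number of animals behind a library and no list of the exons flanked by loxP sites. The submitters' names for the matrices state the genotypes the other way round, so every direction below is between the library labelled fl/fl and the library labelled +/fl. With 1 library per genotype there was no replicate check, no p-value was computed, and each interval is a 95% interval for counting error only.

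Thymic chemokines set up routes for thymocytes. CCL21 and CCL19 are both ligands of the receptor CCR7, which positively selected thymocytes use to move from the cortex into the medulla. In the mouse thymus, Ccl21a is the gene that medullary epithelium uses to make CCL21, and Ccl21a-expressing mTECs and Aire-expressing mTECs are described as largely separate subsets. CCL25 binds CCR9 and acts in thymus seeding and cortical positioning, and the same chemokine is abundant in the small intestinal epithelium. CXCL12 binds CXCR4 and is best known in the thymus from cortical epithelium, where it acts on the earliest thymocytes. CXCL13 binds CXCR5 and organises B-cell follicles in lymphoid tissue. CXCL14 is made by many epithelia, and its receptor is still debated.

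The start regions of the 4 members with the highest levels are shown because these genes fall into the 2 expression patterns described below. Each sequence is the 250 bases before a RefSeq gene start, on the gene's own strand in the mouse build GRCm38.p6. Capitals mark a match to TATAAA or to GGGNNNNNCC, a loose form of the NF-kB site, searched on both strands. The windows are chr4:42773992-42774241 (minus strand) for Ccl21a, chr4:42756366-42756615 (minus strand) for Ccl19, chr8:4349338-4349587 (plus strand) for the second annotated start of Ccl25, and chr5:95956689-95956938 (plus strand) for Cxcl13.
Ccl21a: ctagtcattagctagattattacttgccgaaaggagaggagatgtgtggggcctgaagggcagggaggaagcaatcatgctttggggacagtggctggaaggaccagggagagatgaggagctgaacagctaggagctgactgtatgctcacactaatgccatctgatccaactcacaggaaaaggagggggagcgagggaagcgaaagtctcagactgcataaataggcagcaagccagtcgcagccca
Ccl19: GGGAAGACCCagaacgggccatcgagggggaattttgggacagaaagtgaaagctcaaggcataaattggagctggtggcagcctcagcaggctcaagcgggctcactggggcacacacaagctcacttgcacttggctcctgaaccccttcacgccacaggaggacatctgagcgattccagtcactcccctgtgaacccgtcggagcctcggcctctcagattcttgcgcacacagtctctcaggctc
Ccl25: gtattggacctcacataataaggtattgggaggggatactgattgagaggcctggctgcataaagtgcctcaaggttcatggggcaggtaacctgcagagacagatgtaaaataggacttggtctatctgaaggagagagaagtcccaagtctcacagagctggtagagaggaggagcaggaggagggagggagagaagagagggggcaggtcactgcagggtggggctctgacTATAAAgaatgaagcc
Cxcl13: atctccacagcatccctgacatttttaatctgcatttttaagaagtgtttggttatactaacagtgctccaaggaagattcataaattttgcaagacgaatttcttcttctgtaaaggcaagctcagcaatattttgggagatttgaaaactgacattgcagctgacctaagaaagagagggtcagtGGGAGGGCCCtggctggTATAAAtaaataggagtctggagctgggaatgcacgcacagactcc
Cxcl13 held both motifs, with GGGAGGGCCC starting 63 bases and TATAAA starting 46 bases before the gene start. The Ccl25 window held TATAAA only, starting 16 bases before that start. The Ccl19 window held GGGAAGACCC only, at its far end 250 bases before the RefSeq start. The Ccl21a window held neither, nor did the window of the first annotated start of Ccl25, which is not shown. Counting the 50 bases after each start as well, TATAAA was in 2 of the 7 windows of the 6 genes, against 13.6% of 32851 RefSeq promoter windows of 300 bases. GGGNNNNNCC was in 3 of those 7 windows, against 50.8% of all windows. A match describes letters in a window and is no evidence of binding.

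In the GENCODE M21 annotation of GRCm38, Ccl21a (ENSMUSG00000094686, chr4:42772860-42773993, minus strand) and Ccl19 (ENSMUSG00000071005, chr4:42754525-42756577, minus strand) are neighbours, with 16908 bases between them. The GENCODE start of Ccl19, at 42756577, lies inside the RefSeq window shown above. The annotations thus place this start differently, and the motif position holds for the RefSeq start only. Ccl25 (ENSMUSG00000023235) lies at chr8:4325210-4360020, Cxcl12 (ENSMUSG00000061353) at chr6:117168535-117181367 and Cxcl13 (ENSMUSG00000023078) at chr5:95956951-95961068, all on the plus strand. Cxcl14 (ENSMUSG00000021508) lies at chr13:56288643-56296551 on the minus strand. Ccl21a has near-identical copies, which makes its counting uncertain. The annotated transcript of the copy Gm21541 has 870 bases, as that of Ccl21a does, and differs at 6 of them, 3 of which are in the last 300 bases, where 3' reads start. Gm21541 had 1409 UMIs in the library labelled fl/fl and 1845 in the library labelled +/fl, against 193743 and 236201 for the main Ccl21a row. The Ccl21c rows summed to 14 and 24 UMIs in the libraries labelled fl/fl and +/fl, and the Ccl21b rows held 0.

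The library labelled fl/fl had 11095 deposited barcodes and 99871505 UMIs, against 7304 barcodes and 85260592 UMIs in the library labelled +/fl. After filtering, 7669 cells with a median of 8187 UMIs were kept from the library labelled fl/fl and 4891 cells with a median of 10731 UMIs from the library labelled +/fl. The libraries shared 25 deposited barcodes, 10 of them among kept cells. Epcam stood at 1143 and 1162 UMIs per 1000000 UMIs of a library (CPM) in the libraries labelled fl/fl and +/fl. Enpep, which encodes Ly51, stood at 4.76 and 3.1 CPM, and Cd3e at 3.92 and 5.83 CPM. Ikzf1 itself stood at 37.7 CPM in the library labelled fl/fl, against 64.5 CPM in the library labelled +/fl. Since 3' reads may lie outside the deleted part, this checks neither label. Xist, made from an inactive X chromosome, stood at 0.902 and 1317 CPM, and the Y-linked Ddx3y at 64.5 and 0 CPM, in the libraries labelled fl/fl and +/fl. Genotype, these marks of sex and the library itself cannot be told apart.

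Cells were clustered without the 6 chemokines, and clusters were given names ending in "-like" from marker lists. Basal-like mTECs (keratins, Trp63) were 19.6% of kept cells in the library labelled fl/fl (1504 cells) and 19.2% in the library labelled +/fl (938 cells). Aire-stage-like mTECs (Aire, Fezf2, Cd80) were 37.4% (2870 cells) and 18.4% (902 cells), and tuft-like cells (Trpm5, Pou2f3, Avil) were 10.5% (805 cells) and 36.9% (1804 cells), in the same order. Mimetic mTECs are epithelial cells that carry programmes of other tissues. Besides tuft-like cells they formed keratinocyte-like, microfold-like, secretory-like, neuroendocrine-like, ciliated-like and muscle-like classes, and the muscle-like cluster also met 13 tuft markers. A further cluster carried collagen and other matrix genes together with Epcam at 435 and 870 CPM, and is called matrix-gene Epcam cells. It held 22 cells of the library labelled fl/fl (0.287%) and 205 of the library labelled +/fl (4.19%).

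Ccl21a was by far the most abundant of the 39 chemokine genes in the matrices, at 2395 CPM (95% interval 2384 to 2406) in the library labelled fl/fl and 3543 CPM (3528 to 3557) in the library labelled +/fl. Ccl25 ranked 6 in both libraries, at 387 CPM (383 to 391) and 194 CPM (190 to 197) in the libraries labelled fl/fl and +/fl. Ccl19 ranked 8 in the library labelled fl/fl and 9 in the library labelled +/fl, at 222 CPM (219 to 225) and 118.5 CPM (116 to 121). These levels are shares of tagged 3' ends and need no scaling by transcript length. Cxcl13 followed at 66.1 CPM (64.4 to 67.9) in the library labelled fl/fl and 36.0 CPM (34.6 to 37.5) in the library labelled +/fl. Cxcl12 and Cxcl14 were the scarcest members, at 15.3 and 21 CPM for Cxcl12 and 16 and 11 CPM for Cxcl14 in the libraries labelled fl/fl and +/fl. In bulk sums of this kind, fewer cells of a type and less RNA per cell cannot be told apart, so the classes are taken in turn.

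**Figure D1:**
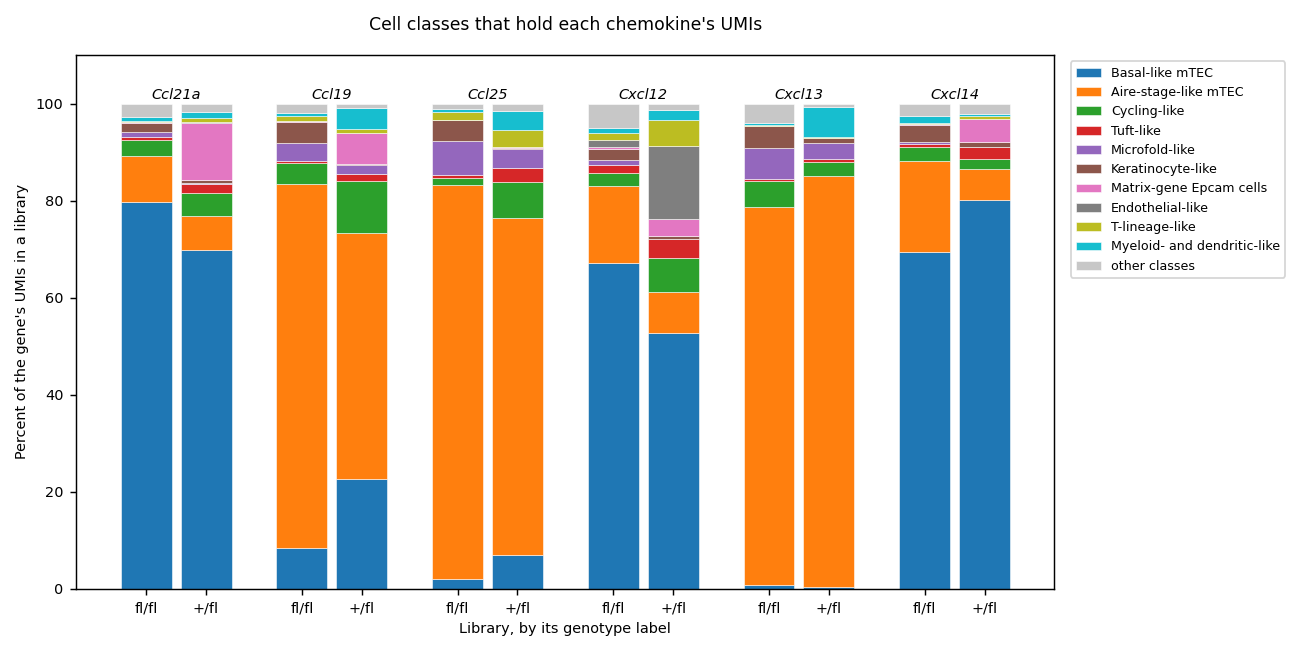
The bars show the percent of each chemokine's UMIs that each cell class held, 1 bar for the library labelled fl/fl and 1 for the library labelled +/fl per gene. Basal-like mTECs held most UMIs of Ccl21a, Cxcl12 and Cxcl14 (52.8% to 80.2%), and Aire-stage-like mTECs, as named here, held most UMIs of Ccl19, Ccl25 and Cxcl13 (50.5% to 84.8%).

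The 6 genes divided over 2 epithelial classes. Basal-like mTECs held 79.7% of Ccl21a UMIs in the library labelled fl/fl and 69.9% in the library labelled +/fl. The same class held 67.2% and 52.8% of Cxcl12 UMIs and 69.3% and 80.2% of Cxcl14 UMIs in the libraries labelled fl/fl and +/fl. Aire-stage-like mTECs held most UMIs of the other 3 genes. They had 75.1% and 50.5% of Ccl19 UMIs, 81.3% and 69.6% of Ccl25 UMIs, and 77.8% and 84.8% of Cxcl13 UMIs in the libraries labelled fl/fl and +/fl. The Aire-stage-like shares in the library labelled +/fl rest mostly on 1 cluster of 822 cells, which met 5 Aire-stage and 4 tuft markers, with 0 Aire-stage markers among its 10 leading genes. When the cells were clustered at double numerical precision, an alternative added after seeing the data, 841 cells of that cluster joined 96 muscle-like cells in a cluster that met 8 tuft markers and took the tuft name. Aire-stage-like mTECs then held 75.03% of Ccl19, 79.7% of Ccl25 and 78.2% of Cxcl13 UMIs in the library labelled fl/fl, but 3.99%, 2.98% and 15.7% in the library labelled +/fl. The shares of basal-like mTECs then lay between 51.5% and 79.7% for Ccl21a, Cxcl12 and Cxcl14. All these shares follow the number of cells in a class as well as the level in it. Across 36 profiles, each 1 cluster in 1 library, the log2 levels of Ccl21a, Cxcl12 and Cxcl14 correlated with one another (Pearson r of 0.79 for Ccl21a with Cxcl12, 0.78 for Ccl21a with Cxcl14 and 0.82 for Cxcl12 with Cxcl14). Ccl19 correlated with Ccl25 at 0.70 and with Cxcl13 at 0.52, and Ccl25 with Cxcl13 at 0.47. Between the sets, Ccl21a correlated with Ccl19 at 0.29, with Ccl25 at -0.16 and with Cxcl13 at -0.31. The profiles come from only 2 libraries, so these values are descriptive. Profiles with fewer than 20 cells were left out. These included the 12 and 18 endothelial-like cells of the libraries labelled fl/fl and +/fl. Cxcl12 stood at 439 and 1842 CPM and Ccl21a at 317 and 141 CPM in them, in the same order.

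**Figure D2:**
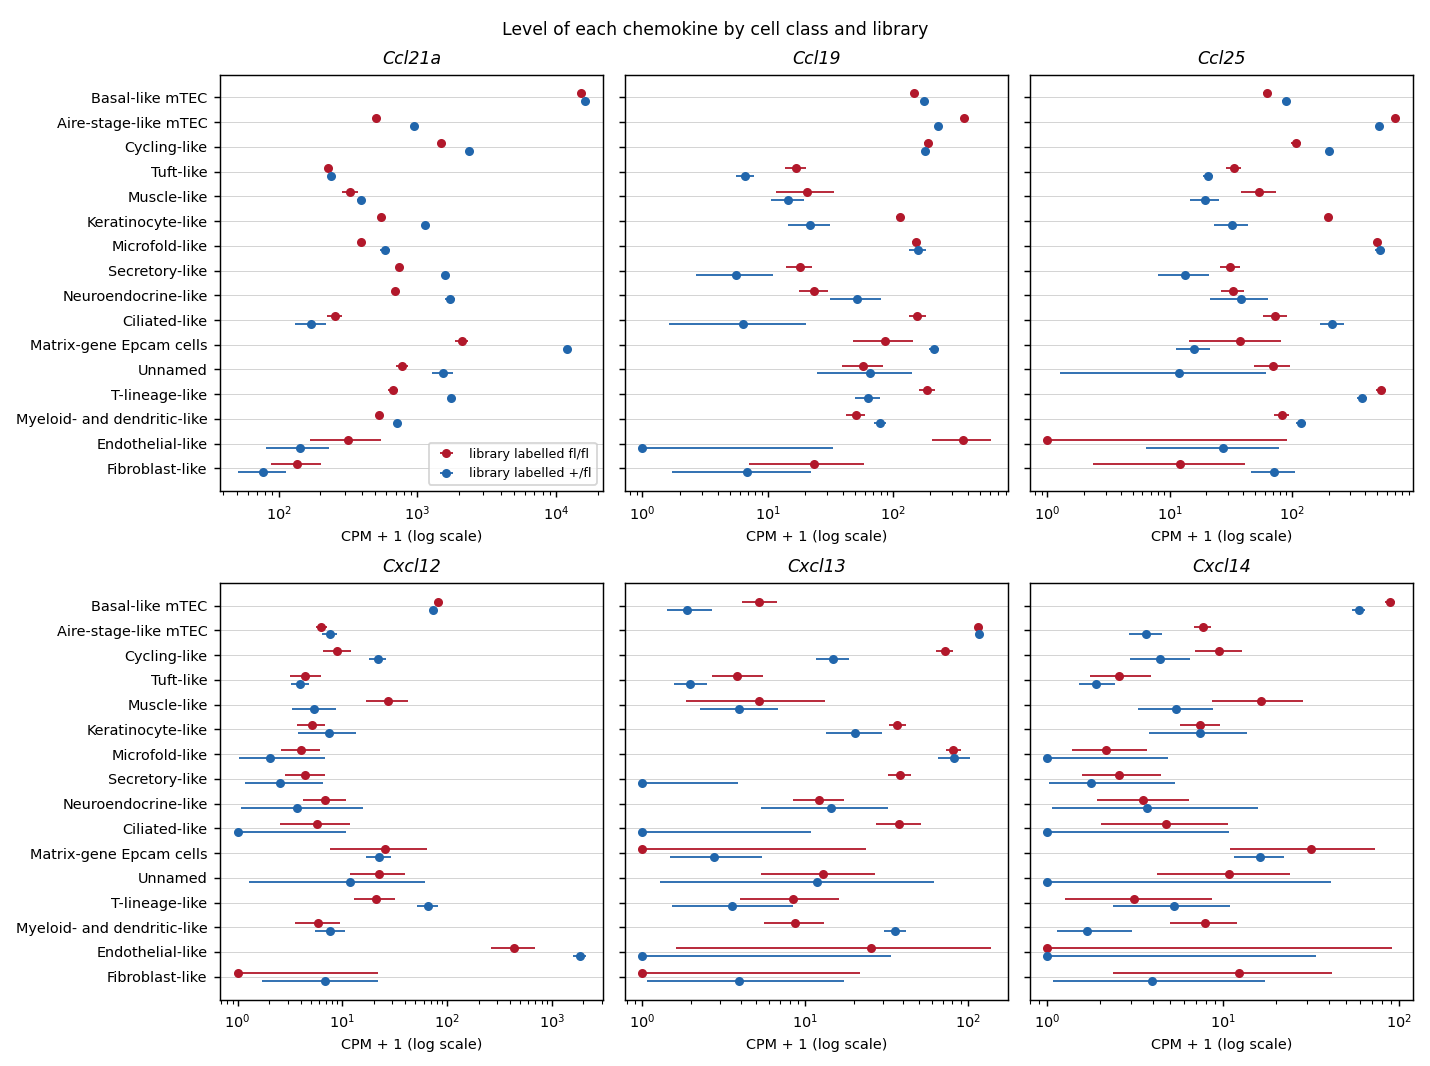
Each panel gives the level of 1 chemokine (CPM + 1, log scale) in each cell class, with the library labelled fl/fl above the library labelled +/fl and bars for 95% counting intervals. Ccl21a stands at 15192 and 16304 CPM in basal-like mTECs of the libraries labelled fl/fl and +/fl, while its level in matrix-gene Epcam cells is 2101 CPM in the library labelled fl/fl, against 12102 CPM in the library labelled +/fl.

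Ccl21a, the CCR7 ligand of the medulla, stood at 15192 CPM (15116 to 15268) in basal-like mTECs of the library labelled fl/fl and 16304 CPM (16225 to 16382) in those of the library labelled +/fl. Ratios between libraries are given as log2 of CPM + 1, with the library labelled fl/fl on top. For Ccl21a in this class the ratio was -0.10 (-0.11 to -0.09), a gap far smaller than that between classes. Next in order came matrix-gene Epcam cells and then cycling-like cells, at 1481 and 2341 CPM in the libraries labelled fl/fl and +/fl. Neighbours further down overlapped in their intervals, such as secretory-like and neuroendocrine-like cells of the library labelled fl/fl at 741 and 689 CPM. Thymocytes and dendritic cells do not make Ccl21a, yet T-lineage-like cells gave 669 and 1749 CPM and myeloid- and dendritic-like cells 532 and 717 CPM in the libraries labelled fl/fl and +/fl. These values serve as the background that free RNA or attached cells can give.

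To set classes of different depth side by side, 2000 UMIs were drawn from each cell (thinning), and the 797 cells labelled fl/fl and 324 cells labelled +/fl with fewer UMIs were not used here. Ccl21a was then seen in 97.6% (96.6 to 98.3) of basal-like mTECs in the library labelled fl/fl and 95.8% (94.2 to 97.0) in the library labelled +/fl. Myeloid- and dendritic-like cells, part of the background, showed it in 30.4% (24.7 to 36.5) and 36.6% (31.1 to 42.4), at median depths before thinning of 6207 and 9631 UMIs. Tuft-like cells lay at or below that background, with 30.4% (27.1 to 33.8) and 28.7% (26.6 to 30.9) of cells at median depths of 6484 and 9334 UMIs. Whether the Ccl21a UMIs in tuft-like cells come from free RNA or from these cells was not tested. Aire-stage-like mTECs lay above myeloid- and dendritic-like cells, at 42.0% (40.0 to 43.9) and 51.9% (48.3 to 55.4) in the libraries labelled fl/fl and +/fl. Their median depths were 10955 and 20346 UMIs. T-lineage-like cells, also background, showed Ccl21a in 35.5% (27.1 to 44.6) and 42.4% (31.7 to 53.6), which overlap the Aire-stage-like shares. By level, Aire-stage-like mTECs lay below T-lineage-like cells, at 505 and 940 CPM against 669 and 1749 CPM. Over all kept cells, 50.5% and 51.5% of thinned cells had a Ccl21a UMI in the libraries labelled fl/fl and +/fl, against 76.7% and 79.2% before thinning.

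Cells with at least 10 Ccl21a UMIs after thinning were taken as Ccl21a-high. There were 1375 of them in the library labelled fl/fl, 20.01% of the thinned cells, and 1051 in the library labelled +/fl, 23.0%. In the library labelled fl/fl, 91.1% of Ccl21a-high cells were basal-like and 0.364% were matrix-gene Epcam cells, whereas in the library labelled +/fl these shares were 74.6% and 15.6%. Most basal-like mTECs passed the cut in both libraries, 89.1% in the library labelled fl/fl and 87.4% in the library labelled +/fl. Ccl21a-high cells more often carried Cxcl12, in 12.9% of them against 1.46% of other cells in the library labelled fl/fl, and in 9.13% against 2.28% in the library labelled +/fl. Cxcl14 was seen in 12.4% of Ccl21a-high cells against 0.8% of others in the library labelled fl/fl, and in 6.95% against 0.256% in the library labelled +/fl. Ccl25 and Cxcl13 lay the other way. Ccl25 was seen in 7.85% of Ccl21a-high cells against 18.5% of others in the library labelled fl/fl and in 5.80% against 9.95% in the library labelled +/fl. Cxcl13 was seen in 0.8% of Ccl21a-high cells against 3.86% of others in the library labelled fl/fl and 0.285% against 2.36% in the library labelled +/fl. Ccl19 took neither side, with 18.7% against 22.4% of cells in the library labelled fl/fl and 21.7% against 9.33% in the library labelled +/fl.

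Basal-like mTECs came as 2 clusters that differed in chemokines. Both had the contractile-cell genes Tagln and Acta2 among their 10 leading genes. The cluster led by Mgp, a matrix gene, had Ccl21a at 17630 and 19917 CPM in the libraries labelled fl/fl and +/fl. The other had 10467 and 11450 CPM, and lower Acta2, at 182 and 181 CPM, against 548 and 557 CPM in the Mgp-led cluster. Cxcl12 and Cxcl14 were also higher in the Mgp-led cluster. Cxcl12 stood at 93.9 and 82.7 CPM there and at 58.1 and 59.5 CPM in the other cluster, in the libraries labelled fl/fl and +/fl. Cxcl14 stood at 111 and 68.2 CPM there and at 44.5 and 44.0 CPM in the other. Ccl19 and Ccl25 were arranged the opposite way. Ccl19 stood at 105 and 136 CPM in the Mgp-led cluster and at 227 and 232 CPM in the other, in the libraries labelled fl/fl and +/fl. Ccl25 stood at 39.8 and 35.0 CPM in the Mgp-led cluster and at 104 and 160 CPM in the other. The second cluster also held more Prss16, a serine protease of cortical epithelium, at 56.4 and 108 CPM, against 27.7 and 32.2 CPM in the Mgp-led cluster, in the libraries labelled fl/fl and +/fl.

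**Figure D3:**
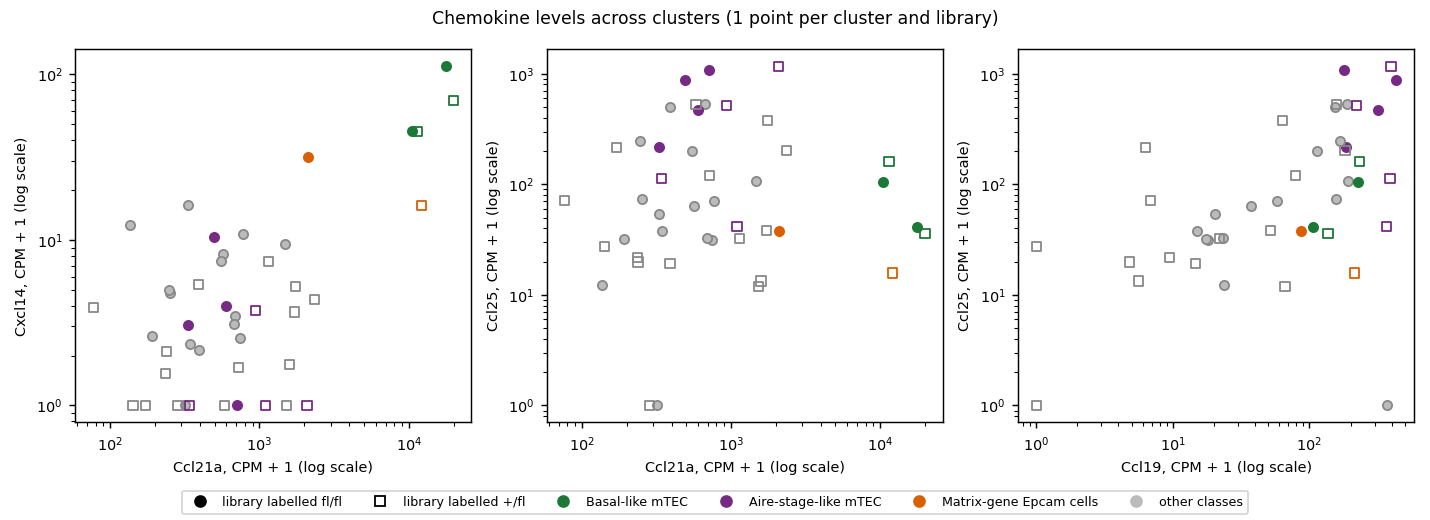
Each point is 1 cluster in 1 library (filled circles for the library labelled fl/fl, open squares for the library labelled +/fl), placed by the levels of 2 chemokines (CPM + 1, both axes log scale). Basal-like clusters lie highest for Ccl21a together with Cxcl14, at 10467 to 19917 CPM of Ccl21a, while the highest Ccl25 levels lie in Aire-stage-like clusters with much less Ccl21a.

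Cxcl14 differed most between the libraries among the 5 members that reached 50 CPM in basal-like mTECs. It stood at 88.3 CPM (82.6 to 94.3, 898 UMIs) in the library labelled fl/fl and 57.9 CPM (53.3 to 62.7, 586 UMIs) in the library labelled +/fl, a log2 ratio of 0.60 (0.46 to 0.76). The Mgp-led cluster had a wider gap, with a ratio of 0.69 (0.52 to 0.88), against 0.02 (-0.30 to 0.33) in the other basal-like cluster. After thinning, Cxcl14 was seen in 12.5% (10.8 to 14.4) of basal-like mTECs in the library labelled fl/fl and 7.69% (6.03 to 9.63) in the library labelled +/fl, against a background of 0.405% and 0.339% of myeloid- and dendritic-like cells. Of these 5 members only Cxcl14 was past 1.5-fold, and it was higher. Among all 3023 genes at that level in basal-like mTECs, 4% were past 1.5-fold, 2.84% higher and 1.16% lower in the library labelled fl/fl. The summed basal marker list of 10 genes stood at 4817 CPM in the library labelled fl/fl, against 6308 CPM in the library labelled +/fl within the class, and the cortical list of 7 genes at 576 and 982 CPM. Their part in the chemokine values was not tested.

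Cxcl12 in basal-like mTECs stood at 81.7 CPM (76.3 to 87.5) in the library labelled fl/fl and 72.8 CPM (67.6 to 78.2) in the library labelled +/fl, a log2 ratio of 0.17 (0.02 to 0.31). The few endothelial-like cells had much more per cell. Cxcl12 reached 439 CPM (260 to 694) there from 18 UMIs in 12 cells of the library labelled fl/fl, and 1842 CPM (1601 to 2110) from 209 UMIs in 18 cells of the library labelled +/fl. Those 18 cells held 14.96% of all Cxcl12 UMIs in the library labelled +/fl. After thinning, Ccl21a was seen in 94.9% (90.9 to 97.6) of Cxcl12-positive and 98.0% (97.1 to 98.7) of Cxcl12-negative basal-like cells of the library labelled fl/fl. In the library labelled +/fl the shares were 83.9% (75.8 to 90.2) and 97.5% (96.1 to 98.4), which do not overlap. Ccl25 was seen in 11.1% of Cxcl12-positive and 7.79% of Cxcl12-negative basal-like cells of the library labelled fl/fl, and in 19.6% and 4.97% in the library labelled +/fl. Every thinned basal-like cell with a Cxcl14 UMI also had a Ccl21a UMI, in both libraries (intervals 97.9 to 100% and 94.8 to 100%). Of those without Cxcl14, 97.2% (96.2 to 98.1) and 95.4% (93.8 to 96.7) had Ccl21a in the libraries labelled fl/fl and +/fl. These intervals overlap, so the values show no pairing of the genes.

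The cells richest in Cxcl12 carried cortical genes in the library labelled +/fl. There, 69 cells held 50% of Cxcl12 UMIs. Psmb11, the thymoproteasome subunit of cortical epithelium, stood at 237 CPM in these 69 cells and at 4.26 CPM in all others. Prss16 stood at 626 against 22.6 CPM, Ly75 at 73.4 against 16.2 CPM and Ccl25 at 1181 against 176 CPM in the same comparison. In the library labelled fl/fl, 174 cells held 50% of Cxcl12 UMIs, and the contrast was smaller, with Psmb11 at 30.4 against 4.68 CPM and Prss16 at 110 against 18.1 CPM. Ccl25 had the other order in the library labelled fl/fl, at 268 CPM in these cells and 390 CPM in all others. The cells were picked by their Cxcl12 UMIs, so the values describe them and test nothing.

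In Aire-stage-like mTECs, different clusters held the class in each library. In the library labelled fl/fl, clusters of 1423, 1140 and 255 cells made up most of it, which held 17, 59 and 4 cells of the library labelled +/fl. The cluster with 822 cells of the library labelled +/fl held 52 cells of the library labelled fl/fl. Ccl25 in the class stood at 693 CPM (685 to 702) in the library labelled fl/fl and 512 CPM (501 to 523) in the library labelled +/fl, a log2 ratio of 0.44. Ccl19 stood at 367 CPM (361 to 373) and 228 CPM (221 to 235), a log2 ratio of 0.69 (0.64 to 0.74). Cxcl13 stood at 113 CPM (110 to 117) and 116 CPM (111 to 121), which overlap. Ccl21a, at 505 CPM (498 to 512) in the library labelled fl/fl and 940 CPM (926 to 954) in the library labelled +/fl, had a log2 ratio of -0.90. All 10 genes of the basal list were detected in the class in both libraries, and their sum moved the same way, at 868 CPM in the library labelled fl/fl, against 1424 CPM in the library labelled +/fl. Its part in the Ccl21a value was not tested. Of the 4 members at 50 CPM or more, Ccl19 was past 1.5-fold higher and Ccl21a past 1.5-fold lower, in a class where 22.1% of 3361 genes were past 1.5-fold, 12.2% higher and 9.91% lower. In such a background, neither count sets the chemokines apart. With the cluster of 822 cells named tuft-like, as at double precision, the Aire-stage-like ratios became 0.82 for Ccl25, 0.22 for Ccl19, -1.71 for Cxcl13 and -1.37 for Ccl21a, so the class ratios hold only for the cells as named here. The Aire-stage gate, which rests on Aire alone and is described further on, does not use the clusters. There too the direction of Ccl25 depends on a setting.

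Of the Aire-stage-like clusters, 2 had more than 50 cells of each library, and in these Ccl25 had the order of the class and Ccl19 did not. The cluster with 1140 cells of the library labelled fl/fl and 59 of the library labelled +/fl had Ccl25 at 464 and 113 CPM and Ccl19 at 316 and 388 CPM. In that cluster Cxcl13 stood at 42.5 CPM in the library labelled fl/fl, against 573 CPM in the library labelled +/fl. In the library labelled +/fl, 9 cells with 73 to 245 UMIs each held 50% of Cxcl13 UMIs, and 1 of them was among these 59 cells. In the cluster of 52 and 822 cells, Ccl25 stood at 1087 and 512 CPM, Ccl19 at 179 and 221 CPM, and Cxcl13 at 3.32 and 99.01 CPM in the libraries labelled fl/fl and +/fl. Of the 52 cells labelled fl/fl, 2 were among the 102 cells that held 50% of Ccl25 UMIs in that library. In the cluster of 1423 and 17 cells, Ccl25 had the other order, at 882 and 1166 CPM. Of those 17 cells, 1 was among the 30 that held 50% of Ccl25 UMIs in the library labelled +/fl. The class level of Ccl19 was higher in the library labelled fl/fl although the clusters of 1140 and 822 cells had it lower there. The class ratio therefore depends on which clusters a library filled.

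**Figure D4:**
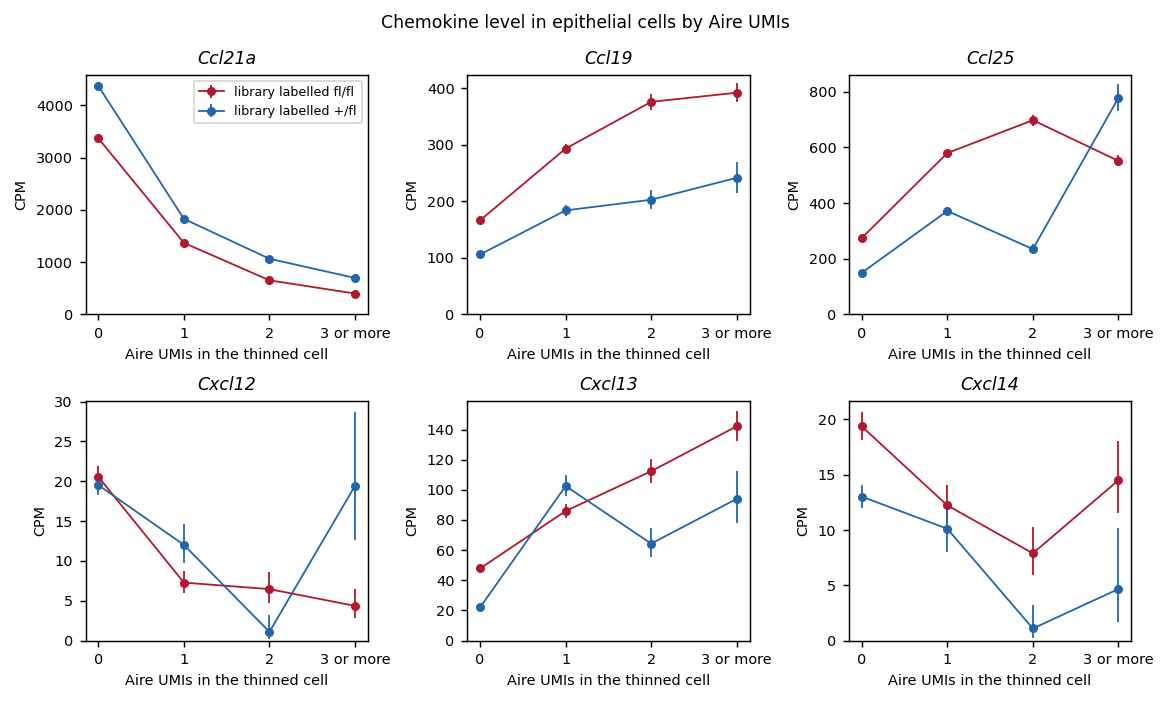
Each panel gives the level of 1 chemokine (CPM, linear axis) in epithelial cells grouped by their Aire UMIs after thinning to 2000 UMIs, 1 line for the library labelled fl/fl and 1 for the library labelled +/fl, with 95% counting intervals. In both libraries Ccl21a is lower at each further step of Aire, while the intervals of Ccl19 overlap between the higher steps, with 3372 CPM of Ccl21a at 0 Aire UMIs and 396 CPM at 3 or more in the library labelled fl/fl.

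Epithelial cells, here all those outside the T-lineage-like, myeloid- and dendritic-like, endothelial-like and fibroblast-like classes, were also grouped by their Aire UMIs after thinning. In the library labelled fl/fl, Ccl21a stood at 3372, 1368, 650 and 396 CPM in cells with 0, 1, 2 and at least 3 Aire UMIs, and in the library labelled +/fl at 4374, 1828, 1063 and 695 CPM. Ccl19 over these steps stood at 166, 293, 376 and 392 CPM in cells labelled fl/fl, and in the library labelled +/fl at 106, 184, 203 and 242 CPM. Intervals of Ccl19 overlapped between 2 and at least 3 Aire UMIs in both libraries, and between 1 and 2 Aire UMIs in the library labelled +/fl. In each library, cells with at least 3 Aire UMIs had less Ccl21a and more Ccl19 than cells with 0, with intervals apart. Ccl25 stood at 274, 580, 698 and 552 CPM in cells labelled fl/fl, and in the library labelled +/fl at 149, 371, 234 and 778 CPM, without a steady order. Cxcl13 stood at 47.8, 85.9, 112 and 142 CPM in cells labelled fl/fl, and in the library labelled +/fl at 21.9, 103, 64.3 and 94.0 CPM. Cxcl12 stood at 20.5, 7.27, 6.46 and 4.35 CPM in cells labelled fl/fl, but at 19.5, 12.0, 1.09 and 19.4 CPM in the library labelled +/fl, where the first and last steps overlap. Cxcl14 stood at 19.4, 12.2, 7.89 and 14.5 CPM in cells labelled fl/fl, and in the library labelled +/fl at 13.02, 10.1, 1.09 and 4.66 CPM. Neither gene kept a steady order in both libraries. The last step held 381 cells of the library labelled fl/fl and 55 of the library labelled +/fl. Ccl19 and Ccl25 were not paired cell by cell. Among thinned Aire-stage-like cells with a Ccl19 UMI, 25.3% had Ccl25 in the library labelled fl/fl and 18.3% in the library labelled +/fl, against 25.2% and 24.0% of those without Ccl19.

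Ccl25 and Cxcl13 were concentrated in few cells. In the library labelled fl/fl, 102 of 7669 cells (1.33%) held 50% of Ccl25 UMIs, with 72 to 586 UMIs each, and in the library labelled +/fl 30 of 4891 cells (0.613%) did so, with 108 to 622 each. Of these cells, 97 of 102 and 24 of 30 were Aire-stage-like in the libraries labelled fl/fl and +/fl. They had more Aire than other cells, at 494 against 321 CPM in the library labelled fl/fl and 299 against 146 CPM in the library labelled +/fl. They also had more Foxn1, the master factor of thymic epithelium, at 58.9 against 30.8 CPM in the library labelled fl/fl and 57.5 against 27.9 CPM in the library labelled +/fl. Psmb11 stood at 36.2 against 4.30 CPM in the library labelled fl/fl and at 155 against 5.80 CPM in the library labelled +/fl. The cells were picked by their Ccl25 UMIs, and most belong to a class named by Aire, so these values test nothing. They were also deeper than other cells, with medians of 20278.5 against 8101 UMIs in the library labelled fl/fl. In the library labelled +/fl the medians were 29173 against 10676 UMIs. Cxcl13 was held more narrowly still. Only 34 cells of the library labelled fl/fl (0.443%) and 9 cells of the library labelled +/fl (0.184%) held 50% of its UMIs, with 28 of 34 and 8 of 9 being Aire-stage-like. By contrast, 461 cells of the library labelled fl/fl (6.01%) and 344 of the library labelled +/fl (7.03%) held 50% of Ccl21a UMIs, and 410 (5.35%) and 183 (3.74%) held 50% of Ccl19 UMIs.

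Among mimetic classes, microfold-like cells had the highest Ccl25 level in both libraries. Microfold cells are antigen-sampling cells of the gut lining, and this cluster also met 9 of the enterocyte and hepatocyte markers. Ccl25 stood at 500 CPM (479 to 522) in 393 microfold-like cells of the library labelled fl/fl and at 524 CPM (479 to 572) in 56 cells of the library labelled +/fl, a log2 ratio of -0.07 (-0.21 to 0.08). It was seen in a larger share of cells than in any other class, 46.5% (41.2 to 51.8) of thinned microfold-like cells of the library labelled fl/fl and 53.2% (38.1 to 67.9) of those of the library labelled +/fl. Aire-stage-like mTECs had a higher or similar level from fewer cells, 25.2% (23.5 to 27.0) and 22.3% (19.4 to 25.3), against 9.31% and 8.81% of myeloid- and dendritic-like cells. Ccl19 and Cxcl13 were also present in microfold-like cells. Ccl19 stood at 153 and 157 CPM and Cxcl13 at 79.9 and 80.8 CPM in the libraries labelled fl/fl and +/fl, with intervals that overlap. Keratinocyte-like cells gave unlike values in the libraries. Their Ccl25 stood at 198 CPM (188 to 209) in 486 cells of the library labelled fl/fl and 31.3 CPM (22.3 to 42.8) in 66 cells of the library labelled +/fl, and their Ccl19 at 113 and 20.9 CPM. The Aire-stage marker list in keratinocyte-like cells moved with them, at a sum of 2035 CPM with 8 of 8 genes detected in the library labelled fl/fl, against 774 CPM with 7 of 8 in the library labelled +/fl, and its part in these values was not tested. Secretory-like cells had 141 Cxcl13 UMIs in the library labelled fl/fl and 0 in the library labelled +/fl.

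Little of any member was held by tuft-like cells as named here. Ccl21a stood at 226 CPM (215 to 238) in the library labelled fl/fl and 236 CPM (230 to 243) in the library labelled +/fl, the only member at 50 CPM or more, and within 1.5-fold. At double precision, when the class took in the cluster of 822 cells, its ratio was -1.06, past 1.5-fold lower. In that class 11.4% of 3573 genes were past 1.5-fold, 5.74% higher and 5.63% lower in the library labelled fl/fl. Ccl25 at 32.4 and 19.6 CPM and Ccl19 at 15.8 and 5.60 CPM were seen in 7.56% and 4.53% and in 3.64% and 0.974% of thinned tuft-like cells of the libraries labelled fl/fl and +/fl. These shares are below those of myeloid- and dendritic-like cells, at 9.31% and 8.81% for Ccl25 and 5.67% and 6.10% for Ccl19. For both genes the intervals of tuft-like and of myeloid- and dendritic-like cells overlap in the library labelled fl/fl. The source of these UMIs was not tested. The sum of the 8 Aire-stage markers in tuft-like cells stood at 258 CPM in the library labelled fl/fl, against 109 CPM in the library labelled +/fl. The 6 mimetic classes other than tuft-like cells together held 12.3% and 5.4% of Ccl25 UMIs, 14.97% and 4.75% of Cxcl13 UMIs and 9.70% and 3.04% of Ccl19 UMIs in the libraries labelled fl/fl and +/fl. Of Ccl21a UMIs they held 5.39% and 2.46%, of Cxcl12 7.44% and 1.72% and of Cxcl14 5.87% and 3.01%.

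Matrix-gene Epcam cells showed the widest gap for Ccl21a. It stood at 2101 CPM (1884 to 2335) in the 22 cells of the library labelled fl/fl and at 12102 CPM (11960 to 12245) in the 205 cells of the library labelled +/fl, a log2 ratio of -2.53 (-2.68 to -2.37). After thinning, 22.7% of these cells were Ccl21a-high in the library labelled fl/fl and 80.0% in the library labelled +/fl, with medians of 2.5 and 23 Ccl21a UMIs. The cells also differed in make-up. All 8 genes of the fibroblast list were detected in both libraries, and their sum stood at 15478 CPM in the library labelled fl/fl, against 2959 CPM in the library labelled +/fl. Of the 10 genes of the basal list, 7 were detected in the library labelled fl/fl (sum 735 CPM) and 9 in the library labelled +/fl (sum 3560 CPM). Krt5 stood at 410 and 1979 CPM in the libraries labelled fl/fl and +/fl. The part of this make-up in the Ccl21a value was not tested. Ccl19 stood at 85.8 CPM (46.9 to 144) and 214 CPM (195 to 234) in the same cells. Ccl25, Cxcl12, Cxcl13 and Cxcl14 each had 6 UMIs or fewer in the 22 cells of the library labelled fl/fl. In the 205 cells of the library labelled +/fl, Cxcl12 and Cxcl14 stood at 21.3 and 15.2 CPM, below their 72.8 and 57.9 CPM in basal-like mTECs.

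Over all kept cells, the library labelled fl/fl had more Ccl19, Ccl25 and Cxcl13 and less Ccl21a. Ccl19 had a log2 ratio of 0.90 (0.87 to 0.94), Ccl25 of 0.99 (0.97 to 1.03) and Cxcl13 of 0.86 (0.81 to 0.95), and these 3 of the 4 members at 50 CPM or more were past 1.5-fold higher. Among 3518 genes at that level 20.6% were past 1.5-fold, 11.7% higher and 8.9% lower, and the median log2 ratio was -0.06. The sum of the 8 Aire-stage markers moved with these 3 genes, at 1944 CPM in the library labelled fl/fl, against 906 CPM in the library labelled +/fl. Ccl21a had a ratio of -0.56 (-0.57 to -0.56). Of the members below 50 CPM, Cxcl14 had a ratio of 0.51 (0.41 to 0.68) and Cxcl12 of -0.43 (-0.57 to -0.34). Scaling by TMM shifts every ratio by -0.10. No member changes direction under it.

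**Figure D5:**
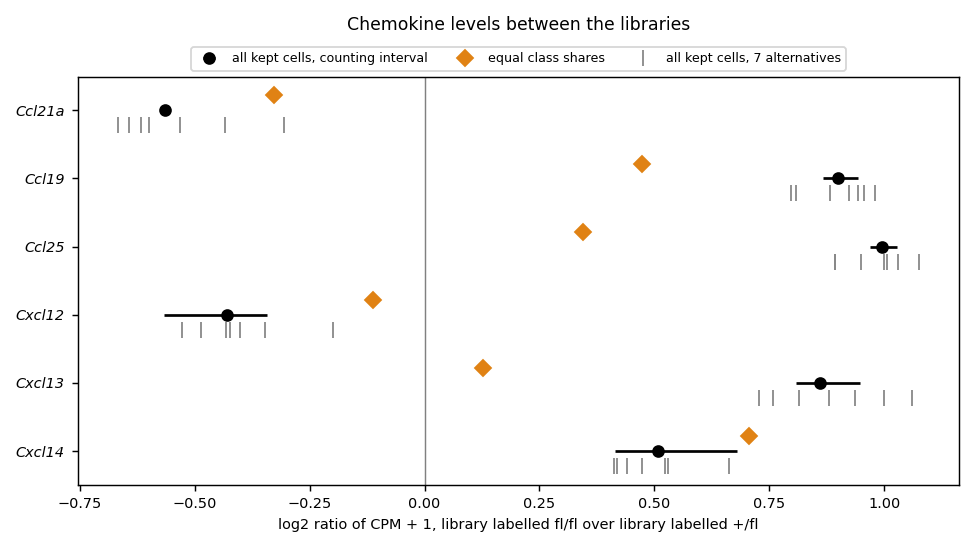
The plot gives the log2 ratio of CPM + 1 for each chemokine, with the library labelled fl/fl on top, over all kept cells (circles, with counting intervals), with both libraries given the same class shares (diamonds) and under 7 alternatives for the first value (ticks). With classes as named here, giving both libraries the same class shares moves Ccl19, Ccl25 and Cxcl13 to 0.47, 0.34 and 0.13.

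The class that holds the genes differed in size, so the sums were also made with the same class shares in both libraries. The ratio of Ccl25 was then 0.34 (313 CPM in the library labelled fl/fl, against 246 CPM in the library labelled +/fl), that of Ccl19 0.47 (188 and 135 CPM) and that of Cxcl13 0.13 (53.1 and 48.5 CPM). Each of these ratios was smaller than over all cells. They hold for the classes as named here and were not recomputed with the double-precision names. For Ccl21a the ratio was -0.33 (2587 and 3247 CPM) and for Cxcl12 -0.11 (17.1 and 18.6 CPM). Cxcl14 went the other way and had a larger ratio at the same class shares, 0.71 (17.3 and 10.2 CPM). Leaving out the matrix-gene Epcam cells, a choice made after seeing the data, gave a Ccl21a ratio over all cells of -0.43.

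In cycling-like cells, of which there were 186 in the library labelled fl/fl and 141 in the library labelled +/fl, 4 members reached 50 CPM. Cxcl13 was past 1.5-fold higher and Ccl21a and Ccl25 past 1.5-fold lower, where 7.94% of 3147 genes were past 1.5-fold, 4% higher and 3.94% lower. The Cxcl13 value, 70.7 CPM in the library labelled fl/fl, against 13.8 CPM in the library labelled +/fl, rests on 1 cell that held 202 of the 292 UMIs in the library labelled fl/fl. The Ccl25 values, 107 and 201 CPM, rest on 1 cell in each library, with 240 of the 442 UMIs for fl/fl, against 497 of the 950 UMIs for +/fl. As a mean over cells the Ccl25 ratio was -0.35, within 1.5-fold. Ccl21a stood at 1481 and 2341 CPM. In myeloid- and dendritic-like cells, 1 of 3 members at 50 CPM or more, Ccl19, was past 1.5-fold lower, at 49.6 CPM in the library labelled fl/fl, against 78.0 CPM in the library labelled +/fl, where 8.1% of 2789 genes were past 1.5-fold, 4.2% higher and 3.91% lower. T-lineage-like cells gave Ccl25 at 535 and 377 CPM, alongside Epcam at 462 and 327 CPM and Aire at 275 and 94.7 CPM in the libraries labelled fl/fl and +/fl. The part of epithelial RNA or attached epithelial cells in these values was not tested.

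Cells were also gated on marker genes alone, without clusters. The gates used Krt5 and Krt14 (basal), Aire alone (Aire-stage), Trpm5 and Avil (tuft) and Col3a1 and Dcn (matrix). Cells that passed another gate too, 450, 219, 109 and 202 in the same order, were left out. Cells with the markers of 2 gates thus do not enter the comparisons between gates. In the basal gate of 1839 cells of the library labelled fl/fl and 1237 cells of the library labelled +/fl, Ccl21a stood at 7488 and 9458 CPM, Cxcl12 at 35.3 and 29.2 CPM and Cxcl14 at 46.3 and 31.0 CPM. Ccl19 stood at 166.5 and 180 CPM in the basal gate and Cxcl13 at 42.2 and 13.1 CPM. Ccl25 stood at 149 and 103 CPM there, a ratio of 0.53, whereas the ratio in basal-like mTECs was -0.51 (61.8 and 88.2 CPM). In the Aire-stage gate of 722 and 113 cells, Ccl21a stood at 459 and 647 CPM, Ccl19 at 387 and 225 CPM, Ccl25 at 684 and 507 CPM and Cxcl13 at 129 and 104 CPM. Cxcl12 stood at 5.91 and 9.31 CPM and Cxcl14 at 11.9 and 3.105 CPM in the Aire-stage gate, so Ccl21a, Cxcl12 and Cxcl14 were higher in the basal than in the Aire-stage gate of either library, and Ccl19, Ccl25 and Cxcl13 lower. Requiring 3 UMIs over the markers of a gate in place of 2 turned the Ccl25 ratio of the Aire-stage gate from 0.43 to -0.35. In the tuft gate of 664 and 1499 cells, Ccl21a stood at 200.01 and 193 CPM and Ccl25 at 72.7 and 26.1 CPM in the libraries labelled fl/fl and +/fl. The matrix gate of 91 and 96 cells gave Ccl21a at 946 and 4329 CPM and Ccl25 at 1248 and 294 CPM.

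Receptors for these ligands were found in the leukocytes of the sort. Ccr7 was highest in myeloid- and dendritic-like cells, at 1023 CPM in the library labelled fl/fl, against 1162 CPM in the library labelled +/fl, and stood at 280 and 141 CPM in T-lineage-like cells and 163 and 143 CPM in microfold-like cells. Ccr9, the receptor of CCL25, stood at 180 and 264 CPM in T-lineage-like cells and at 6.45 and 7.38 CPM over all cells. Cxcr4 stood at 23.1 and 27.1 CPM in T-lineage-like cells, and Cxcr5 was scarce, at 4.2 and 2.54 CPM. Scavenging receptors bind chemokines and remove them. Ackr4, which takes up CCL19, CCL21 and CCL25, had its highest level in tuft-like cells, where it was past 1.5-fold lower at 67.2 CPM in the library labelled fl/fl, against 110 CPM in the library labelled +/fl. Ackr3, a scavenger of CXCL12, stood at 61.3 and 60.3 CPM in matrix-gene Epcam cells. Of the 7 receptors and scavengers listed, only Ccr7 reached 50 CPM over all cells, and it was within 1.5-fold, at 75.1 and 87.4 CPM. In Aire-stage-like mTECs, where 22.1% of genes were past 1.5-fold, Ccr7 was past 1.5-fold higher, at 60.4 CPM in the library labelled fl/fl, against 12.1 CPM in the library labelled +/fl.

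Genes acting upstream of these chemokines in mTECs were compared next. Of 9 listed, 4 reached 50 CPM in basal-like mTECs and 0 passed 1.5-fold, against 4% of all genes in that class. Tnfrsf11a, which encodes RANK, stood at 65.0 and 65.2 CPM in basal-like mTECs, and Relb, the non-canonical NF-kB subunit, at 128 and 122 CPM in the libraries labelled fl/fl and +/fl. Ltbr, the lymphotoxin receptor, stood at 31.8 and 36.4 CPM there. Over all cells, where 20.6% of 3518 genes were past 1.5-fold, 11.7% higher and 8.9% lower, 5 of the 9 reached 50 CPM, and Cd40 alone was past 1.5-fold higher, at 114 CPM in the library labelled fl/fl, against 71.3 CPM in the library labelled +/fl. Of 9 genes that hold chemokines on the cell surface or trim them, 3 reached 50 CPM over all cells, and the heparan sulfate carrier Sdc4 was past 1.5-fold lower, at 241 and 635 CPM in the libraries labelled fl/fl and +/fl. Each of these counts is of 1 gene. Of the 33 other chemokine genes, 16 reached 50 CPM, 10 of these were past 1.5-fold higher and 0 past 1.5-fold lower over all cells, against 11.7% and 8.9% of all genes, with a median log2 ratio of 0.68, against 0.88 for the 4 members at that level.

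For each member, the 5 genes with the most similar levels over the 36 profiles were taken from 12527 genes. The lists depend on the measure. With Spearman's rank correlation in place of Pearson's, 1 of the 5 stayed for Ccl21a (its copy), 4 for Ccl19 and 3 for Ccl25. For Cxcl12 2 of the 5 stayed, for Cxcl13 1 and for Cxcl14 1. Ccl21a was most like its copy Gm21541 (r of 0.93), AI646519 (0.93), the focal-adhesion protein gene Tgfb1i1 (0.92), the activin antagonist gene Fst (0.90) and the Wnt receptor gene Fzd2 (0.90). Cxcl14 also had Fzd2 among its 5 (0.89), after Irak3 (0.92), Slc27a3 (0.92), CT025619.1 (0.91) and Slc38a4 (0.90). Cxcl12 was most like Kcnk2 (0.86), Synm (0.85), Ctsl (0.83), Smo (0.83) and Flna (0.82). The other set had its own neighbours. Ccl19 was most like the adhesion molecule gene Vcam1 (0.85), the immunoproteasome subunit gene Psmb10 (0.84), Gm2564 (0.82), Mras (0.80) and H2-DMb2 (0.80). Ccl25 shared Psmb10 (0.82), beside Nup85 (0.87), Rnf183 (0.84), 1300017J02Rik (0.84) and Gm29461 (0.81). Cxcl13 was most like the vasopressin gene Avp (0.82), Tnfrsf11b (0.81), the gene of the RANK ligand decoy, and Bpifb2 (0.81), Krt42 (0.81) and Smtnl1 (0.80).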

How the data were processed

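The authors deposited raw UMI counts per gene and barcode for both libraries, and the submitters' processing notes list Cell Ranger and Seurat without versions or roles. Per the file headers the software version was 3.1.0. The build used for counting was not given in the sources used here. Groups follow the genotype labels.

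Kept cells had 500 genes or more, 1000 UMIs or more and no more than 15% of UMIs from mitochondrial genes (8208 in the library labelled fl/fl, 5099 in the library labelled +/fl). The automatic Scrublet call marked 0 and 1 cells and was taken not to have worked, so the cells with the highest scores, 0.8% per 1000 cells, were removed (539 and 208). The rest were clustered at single precision in scanpy 1.11.5 (Python 3.11.15; 2000 variable genes without the 6 members, 30 components, 15 neighbours, Leiden resolution 1), giving 22 clusters. A cluster was named from 19 marker lists when at least 3 markers were met. The rule for naming was settled with the clusters in view. Of the 31053 identifiers, 31011 are in GENCODE M21.

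CPM are UMIs summed over the cells of a class and library, with exact Poisson intervals. Log2 ratios use CPM + 1, and their exact conditional intervals do not include the added 1. Shares have exact Clopper-Pearson intervals. UMIs are counted molecules, and intervals cover counting error only. A gene was called past 1.5-fold where it reached 50 CPM in 1 of the libraries, with no test, as there is 1 library per genotype. Likeness is Pearson's r of log2(CPM + 10). TMM factors came from edgeR 4.0.16 in R 4.3.3. Promoters are from RefSeq (GRCm38.p6), where all 6 members matched, and transcripts from GENCODE M21. The summing and ratio steps were tested on simulated data.

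Members, marker lists and the named genes (the 6 members, their copies, receptors, scavengers, upstream genes, surface genes, other chemokines and the 5 most alike) were chosen with earlier results of these data known. Leading genes of the basal-like clusters and the cortical genes of the richest cells were named after their values were seen. Alternatives covered the cell filter, doublets, scaling, resolution, clustering each library apart, numerical precision (added after seeing the data), thinning depth, gates and the correlation for likeness. Values of 1 listed gene are not reported here.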

Additional observations from a re-analysis of the deposited data

Results flagged for a closer look

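In the 5 classes with at least 100 cells in each library, members with 50 UMIs or more were compared. The ratios of Ccl19, Ccl25 and Cxcl13 took opposite directions between classes. These differences between classes were not tested, since there is 1 library per genotype. The rule of 50 CPM was not applied here. Below it in both libraries were Ccl19 and Ccl25 in tuft-like cells, and Cxcl13 in basal-like mTECs and in myeloid- and dendritic-like cells. Under that rule only Ccl19 was past 1.5-fold in both directions, higher in Aire-stage-like mTECs and lower in myeloid- and dendritic-like cells. In these classes 22.1% and 8.1% of all genes were past 1.5-fold. The share of all genes with opposite directions is not given here. For Ccl19, the log2 ratio, with the library labelled fl/fl on top, was 0.69 in Aire-stage-like mTECs and 1.35 in tuft-like cells, but -0.64 in myeloid- and dendritic-like cells. The share of tuft-like cells with Ccl19 was below that of myeloid- and dendritic-like cells. The tuft-like ratio reversed when clusters were made at double precision.

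For Ccl25, the ratio was 0.70 in tuft-like cells, and it reversed at double precision. The share of tuft-like cells with Ccl25 was again below that of myeloid- and dendritic-like cells. The Ccl25 ratio was -0.91 in cycling-like cells, where 1 cell held 240 of 442 UMIs in the library labelled fl/fl and 1 cell 497 of 950 in the library labelled +/fl. For Cxcl13, the ratio was 1.47 in basal-like mTECs, from 43 and 9 UMIs in the libraries labelled fl/fl and +/fl. It was 2.28 in cycling-like cells and -2.04 in myeloid- and dendritic-like cells. In the first of these, 1 cell of the library labelled fl/fl held 202 of 292 UMIs. In the other, 1 cell of the library labelled +/fl held 121 of 150 UMIs.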

How the results depend on the processing

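No paired analysis was possible because each genotype has 1 library. Over all cells, no member changed direction under 7 alternatives. The Ccl21a ratio was -0.64 under the stricter cell filter, -0.53 over all deposited barcodes, -0.60 with doublets kept, -0.67 with TMM, -0.30 as a mean over cells, -0.62 in epithelial classes and -0.43 without matrix-gene Epcam cells (added after seeing the data). Ccl19 moved to 0.81 under the stricter filter, 0.98 over all barcodes, 0.80 with TMM and 0.96 as a mean over cells. Ccl25 moved to 0.89 under the stricter filter, 1.08 over all barcodes, 1.03 with doublets kept, 0.89 with TMM and 0.95 without matrix-gene Epcam cells. Cxcl13 moved to 1.06, 1.001, 0.76 and 0.73 under the stricter filter, all barcodes, TMM and the mean over cells. Cxcl12 moved to -0.20 in epithelial classes and Cxcl14 to 0.41 with TMM. Genes past 1.5-fold numbered 724, against 2101 at 10 CPM or more and 4990 at 1 UMI or more, since more genes were then counted.

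Within classes, basal-like ratios kept their direction under the alternatives for clustering, cell filter and averaging. The basal gate gave Ccl25 at 0.53, and 0.03 with at least 3 UMIs over its markers, against -0.51 in the class. At double numerical precision, added after seeing the data, 13.2% of 12560 cells took another class, and a cluster of Aire-stage-like cells of the library labelled +/fl took the tuft name. In tuft-like cells Ccl19 then reversed to -1.89 and Ccl25 to -1.11, and Ccl21a moved to -1.06. In Aire-stage-like mTECs, Ccl25 ranged from -0.09 to 0.82 and Cxcl13 from -1.71 to 0.35 over all alternatives. Among myeloid- and dendritic-like cells, Ccl19 reversed to 1.07 at resolution 2, and Cxcl13 reversed to 2.74 at resolution 2, 0.45 with libraries clustered apart and 0.12 under the stricter filter. With at least 3 UMIs over a gate's markers, Cxcl13 reversed to 0.12 in the matrix gate and Ccl25 turned to -0.35 in the Aire-stage gate. The cause was not tested. At a resolution of 2, Aire-stage-like mTECs held 30.2% of Ccl19 UMIs in the library labelled +/fl, against 50.5% as reported.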

Other observations

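Cxcr5 stood at 7.28 CPM in Aire-stage-like mTECs of the library labelled fl/fl and 1.71 CPM in those of the library labelled +/fl. Ackr3 stood at 220 and 17.6 CPM in the 12 and 18 endothelial-like cells of the libraries labelled fl/fl and +/fl. Both Ackr3 values rest on few UMIs. In these cells 1 UMI makes 24.4 CPM in the library labelled fl/fl, and 3 UMIs make 26.4 CPM in the library labelled +/fl.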
